A study of Nematostella vectensis with 4 samples.

Results

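The 6 gene models described here come from the sea anemone Nematostella vectensis and were chosen by identifier from the deposited gene table because their names point to the calponin family of actin-binding proteins. They are 6 of 25734 gene rows, and 14 rows in all carry a calponin, MP20 or myophilin name. NVE7520 and NVE7493 are named MP20_DROME after the fruit fly muscle protein MP20. NVE7522 and NVE1642 are named MYPH_ECHGR after myophilin of the tapeworm Echinococcus granulosus. NVE7521 is named CNN2_BOVIN after bovine calponin-2, and NVE17049 is named NvMyophilin-like. The identifiers NVE7520, NVE7521 and NVE7522 are consecutive in the gene set, but positions and protein sequences were not analysed here, so how closely the 6 models are related was not examined.

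Calponin, MP20, myophilin and the related transgelins share a calponin homology domain and bind actin filaments. Calponin is best known from vertebrate smooth muscle, where it binds actin and inhibits the myosin ATPase, and calponin-2 is also made outside muscle. MP20 was described in fly muscle and myophilin in the muscle of the tapeworm. A sea anemone has no separate muscle tissue of the vertebrate kind. Its contractile fibres lie in the bases of epithelial cells, with fast retractor muscles in the tentacles and mesenteries and slower muscles running along and around the body column, and the study behind these data asked how such muscle cell types differ and which duplicated genes they use.

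Single-cell RNA profiles were made from polyps 5 months old, described as sub-adult, that were cut into tentacle, mesentery, pharynx and body wall. Each tissue was dissociated with an enzyme and run as 1 droplet library with 10x Genomics version 2 chemistry, which counts molecules near the 3′ end of a transcript by unique molecular identifiers (UMIs). The number of animals pooled is not given in the labels, no genotype, strain or treatment separates the groups, and with 1 library for each tissue no difference between tissues has a replicate check. All intervals below are therefore 95% intervals of counting error alone, exact Poisson for levels and ratios and exact binomial (Clopper-Pearson) for shares.

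Each library held 7000 barcodes, of which 1299 (tentacle), 1357 (mesentery), 2804 (pharynx) and 1652 (body wall) had at least 300 UMIs and were kept. Their median depth was 542 to 766 UMIs, and any pair of libraries shared between 1 and 9 kept barcode sequences. Name-based markers followed the dissection: 4 stinging-cell genes made up 1.04% of UMIs in tentacle and 0.0355% in body wall, and 119 digestive enzyme genes made up 2.68% in mesentery and 0.0873% in tentacle. The 58 muscle markers, which exclude the 6 models, made up 0.953% in tentacle, 0.676% in mesentery, 0.627% in pharynx and 0.585% in body wall. One of them, the myosin light chain MYL9_MOUSE (NVE20160), a regulator of myosin motor activity, had 2383 UMIs for each 1000000 counted (CPM) in tentacle, 1262 in mesentery and 862 in pharynx. It was at 0 in body wall, so the muscle signal of that tissue came from other genes.

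Across the tissues the 6 models fell into opposite gradients. NVE7520, NVE7493 and NVE7522 were highest in body wall and lowest in tentacle, whereas NVE1642, NVE17049 and NVE7521 were highest in tentacle. The level of NVE7520, named after fly MP20, was 93.3 CPM in tentacle (172 UMIs), 368 in mesentery (575), 651 in pharynx (1793) and 1608 in body wall (3222). No neighbours in that order had overlapping intervals, with body wall at 2.47 times pharynx (2.33 to 2.62), pharynx at 1.77 times mesentery (1.61 to 1.95) and mesentery at 3.94 times tentacle (3.32 to 4.70). A sum over a tissue cannot separate fewer cells that use a gene from less of its RNA in each cell.

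NVE7493, the second model named after MP20, kept the same order at lower counts. Its level was 6.51 CPM in tentacle (12 UMIs), 85.7 in mesentery (134), 133 in pharynx (367) and 199.6 in body wall (400). Body wall exceeded tentacle 30.7-fold (17.4 to 59.9) and pharynx only 1.50-fold (1.30 to 1.73), so tentacle stood apart from the other 3 tissues. NVE7522, named after myophilin, was instead concentrated in body wall. Its level was 11.9 CPM in tentacle (22 UMIs), 43.5 in mesentery (68), 45.7 in pharynx (126) and 825 in body wall (1654), which was 18.1 times the pharynx level (15.1 to 21.8). Pharynx and mesentery could not be told apart for NVE7522, with a ratio of 1.05 (0.777 to 1.43).

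**Figure D1:**
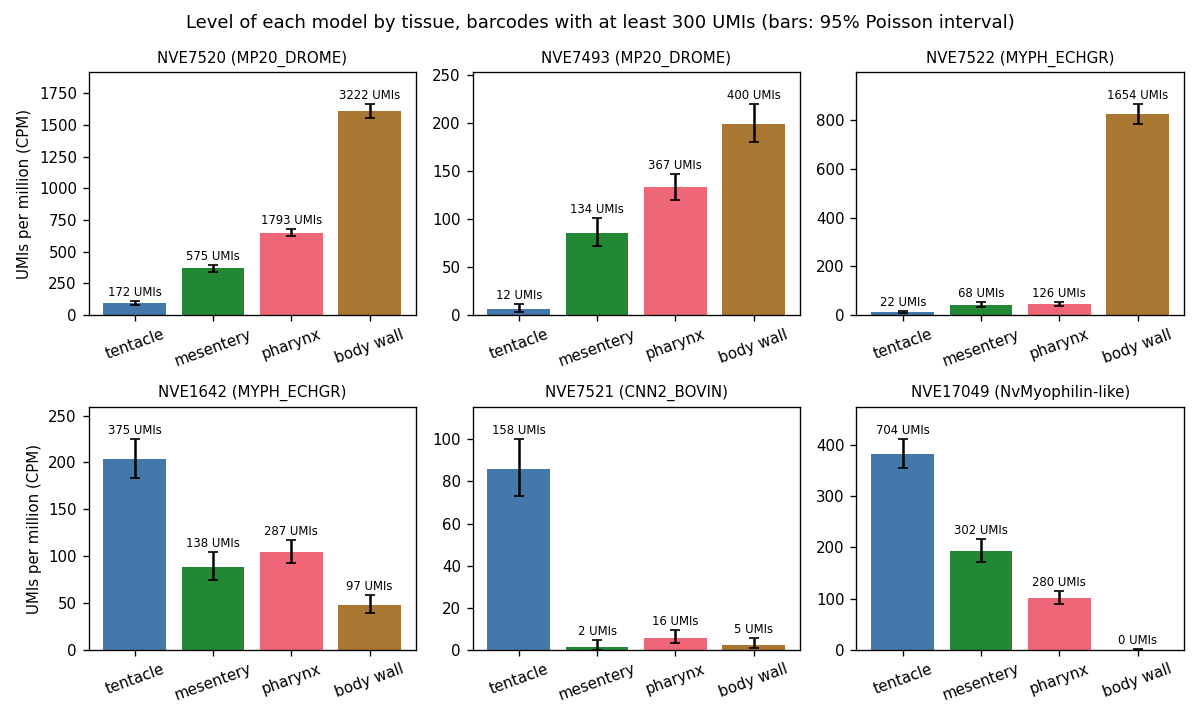
The 6 panels plot the level of each gene model in CPM (linear axis from 0) in the 4 tissues, with 95% Poisson intervals as error bars and the UMI count above each bar. The upper 3 models peak in body wall and the lower 3 in tentacle, where NVE7521 is nearly confined, and NVE17049 has 0 UMIs in body wall.

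The tentacle-high models differed from each other in how far they reached into the other tissues. NVE1642, the other model named after myophilin, was the flattest of the 6, at 203 CPM in tentacle (375 UMIs), 88.3 in mesentery (138), 104 in pharynx (287) and 48.4 in body wall (97). Its mesentery and pharynx levels could not be told apart (ratio 1.18, 0.960 to 1.46), and tentacle exceeded body wall 4.20-fold (3.35 to 5.31). NVE17049, the NvMyophilin-like model, fell from 382 CPM in tentacle (704 UMIs) to 193 in mesentery (302) and 102 in pharynx (280), each neighbour differing by 1.90-fold or more. Not a single UMI of NVE17049 was counted in body wall, neither in kept barcodes nor in the remainder of the 7000. Set against a floor of 3 UMIs, tentacle was at least 255-fold higher than body wall.

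NVE7521, the only one of the 6 with a calponin name, was nearly a tentacle gene. It had 85.7 CPM in tentacle (158 UMIs), 5.81 in pharynx (16), 2.50 in body wall (5) and 1.28 in mesentery (2). Tentacle exceeded pharynx 14.8-fold (8.81 to 26.5), while pharynx and body wall could not be told apart (2.33, 0.815 to 8.12). With only 2 UMIs, mesentery gave a tentacle ratio of 67.0 with an interval of 18.25 to 558.

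By a size rule, a gene was called tissue-high at 4 times each other tissue or more, and tissue-low at 0.25 times each other tissue or less. NVE7522 was the 1 member called high in body wall, where 8.41% of all genes with at least 50 UMIs were, and NVE7521 the 1 called high in tentacle, where 12.1% were. NVE7521 and NVE17049 had too few UMIs to be called high in body wall, as did NVE7493 and NVE7522 in tentacle. NVE7493 was the 1 called low in tentacle against 3.68% of all genes that could be, and NVE17049 the 1 called low in body wall against 2.00%. Besides these, only NVE7520, NVE7522 and NVE1642 could be called low in tentacle, and only NVE7520 and NVE1642 in body wall. No member was called in mesentery, where 6.45% of genes were high and 1.09% low, or in pharynx, where 3.57% were high and 0.383% low. In these tissues NVE7521 could not be called high, and only NVE7520 and NVE1642 could be called low. In any tissue 2 of the 6 were called high, against 17.5% of genes. NVE7520 missed the tentacle-low call narrowly, through its 3.94-fold step to mesentery, and NVE7522 through a 3.64-fold step (2.23 to 6.19). Both were called low in tentacle when barcodes needed 500 UMIs. The highest tissue was at least 4 times the lowest for all 6, which also held for 45.5% of all genes with at least 50 UMIs in a tissue, and NVE1642 stood at 3.20 to 6.68 on this measure under other settings.

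The total and the mixture of the 6 transcripts also differed between tissues. The 6 models together made up 0.0783% of UMIs in tentacle, 0.0780% in mesentery, 0.104% in pharynx and 0.268% in body wall. NVE17049 contributed 48.8% of the members' UMIs in tentacle (46.2 to 51.4) and NVE1642 another 26.0%. NVE7520 contributed 47.2% in mesentery, 62.5% in pharynx and 59.9% in body wall, where NVE7522 added 30.8%. These shares compare counts near the 3′ end with no correction for transcript length or for reads that fit more than one copy. How the authors' counting treated reads shared between near-identical copies was not given in the sources used here, so the split between copies is uncertain to that extent.

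Single barcodes showed which models were used together. Barcodes with at least 1 UMI of NVE7520 were 8.16% in tentacle (6.73 to 9.78), 14.7% in mesentery, 20.04% in pharynx and 35.0% in body wall (32.7 to 37.3). After thinning each barcode to 300 UMIs these became 4.16%, 9.43%, 12.4% and 24.5%, in the same order. Stinging cells, identified by at least 5 UMIs of the minicollagen Ncol3, served as cells that should lack muscle genes. Among 268 such barcodes of tentacle (median 1719.5 UMIs against 703 for the tissue), 3.73% had an NVE7520 UMI and 3.36% an NVE17049 UMI, against 9.16% for NVE17049 in all tentacle barcodes. Among 77 in pharynx (median 1469 against 563) NVE7520 reached 12.99% (6.41 to 22.6), but at 43.8 CPM against 651 in the tissue. Since single UMIs reach such cells, a barcode was counted as positive only at 2 UMIs or more. By that rule NVE7520 was positive in 1 of the 268 tentacle and 2 of the 77 pharynx stinging-cell barcodes.

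NVE1642 and NVE17049 were found in the same cells in the 3 tissues that had both. In tentacle 55 of 60 NVE1642-positive barcodes were also NVE17049-positive (91.7%, 81.6 to 97.2), in mesentery 21 of 24 (87.5%, 67.6 to 97.3) and in pharynx 28 of 41 (68.3%, 51.9 to 81.9). The reverse shares were lower, 55 of 87, 21 of 32 and 28 of 42, so a number of NVE17049-positive barcodes had no call for NVE1642. Because positive barcodes were deeper than the rest (median 1714 UMIs against 654 without NVE1642 in tentacle), levels were compared too. The level of NVE17049 was 4930 CPM in NVE1642-positive and 60.3 CPM in NVE1642-free tentacle barcodes, a ratio of 81.8 (66.0 to 102), while 6.10% of all genes reached 4-fold there. Among barcodes with at least 1000 UMIs this ratio was 345. The ratio was 169 (116 to 252) in mesentery, where 2.22% of genes reached 4-fold, and 62.5 (47.8 to 82.6) in pharynx, where 2.32% did.

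NVE7520 and NVE7522 were treated as a second pair, seen mainly in body wall, where NVE7493 also shared their barcodes. There 195 of 222 NVE7522-positive barcodes were NVE7520-positive (87.8%, 82.8 to 91.8), and 195 of 351 the other way round. The level of NVE7522 was 2574 CPM in NVE7520-positive and 77.3 CPM in NVE7520-free barcodes of body wall, a ratio of 33.3 (27.0 to 41.5), where 7.86% of all genes reached 4-fold. Among barcodes with at least 1000 UMIs it was 86.9. In reverse, NVE7520 was 15.5 times higher (14.0 to 17.1) with NVE7522 than without, where 6.74% of genes reached 4-fold. In mesentery all 8 NVE7522-positive barcodes were among the 89 with NVE7520, at a ratio of 66.4 (28.8 to 188) against 3.66% of genes at 4-fold. In pharynx NVE7520 was common without NVE7522, with 12 of 269 positive barcodes sharing both and a ratio of 12.1 (7.56 to 19.9) against 5.31% of genes at 4-fold. Tentacle had 23 NVE7520-positive barcodes, of which 2 also had NVE7493, 1 had NVE7522 and 0 had NVE1642 or NVE17049 (3 would make 13.04%), and 2.77% of genes reached 4-fold there.

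How often the 2 pairs met in a barcode differed between tissues and with the pair counted from. A barcode counted for a pair when either of its models was positive, so it need not hold both models. In body wall, where NVE17049 was at 0, the NVE1642 and NVE17049 pair was NVE1642 alone. Outside body wall the NVE7520 and NVE7522 pair rested almost wholly on NVE7520. NVE7520 was positive in 23 of 23 such barcodes of tentacle, 89 of 89 of mesentery and 269 of 274 of pharynx. Of the barcodes positive for either pair, 0 of 115 in tentacle held both (3 barcodes would make 2.61%), 3 of 121 in mesentery (2.48%, 0.514 to 7.08), 21 of 308 in pharynx (6.82%, 4.27 to 10.2) and 15 of 379 in body wall (3.96%, 2.23 to 6.44). Counted from the NVE1642 and NVE17049 pair, 0 of 92 positive barcodes in tentacle, 3 of 35 in mesentery, 21 of 55 in pharynx and 15 of 16 in body wall also held the other pair. Among all kept barcodes the NVE7520 and NVE7522 pair was positive in 23 of 1299, 89 of 1357, 274 of 2804 and 378 of 1652. The difference between these shares was not tested, and positive barcodes were deeper than the tissue. In body wall the share with both, over barcodes with either pair, was 1.98% without the 2% deepest barcodes and 9.67% when a single UMI made a barcode positive. In tentacle the level of NVE7520 was 15.5 CPM in NVE17049-positive and 102 CPM in NVE17049-free barcodes, a ratio of 0.153 (0.0183 to 0.560). The median ratio of all genes there was 0.691, and 6.27% reached 4-fold upward. The share of genes that fell as far was not counted. In mesentery the NVE7520 ratio was 0.190 (0.0615 to 0.447), against a median of 0.8475 for all genes, with 2.05% at 4-fold upward. It was 0.805 when a single UMI made a barcode positive. In pharynx the direction was the other one, at 1.83 (1.51 to 2.21), with 2.11% of genes at 4-fold.

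**Figure D2:**
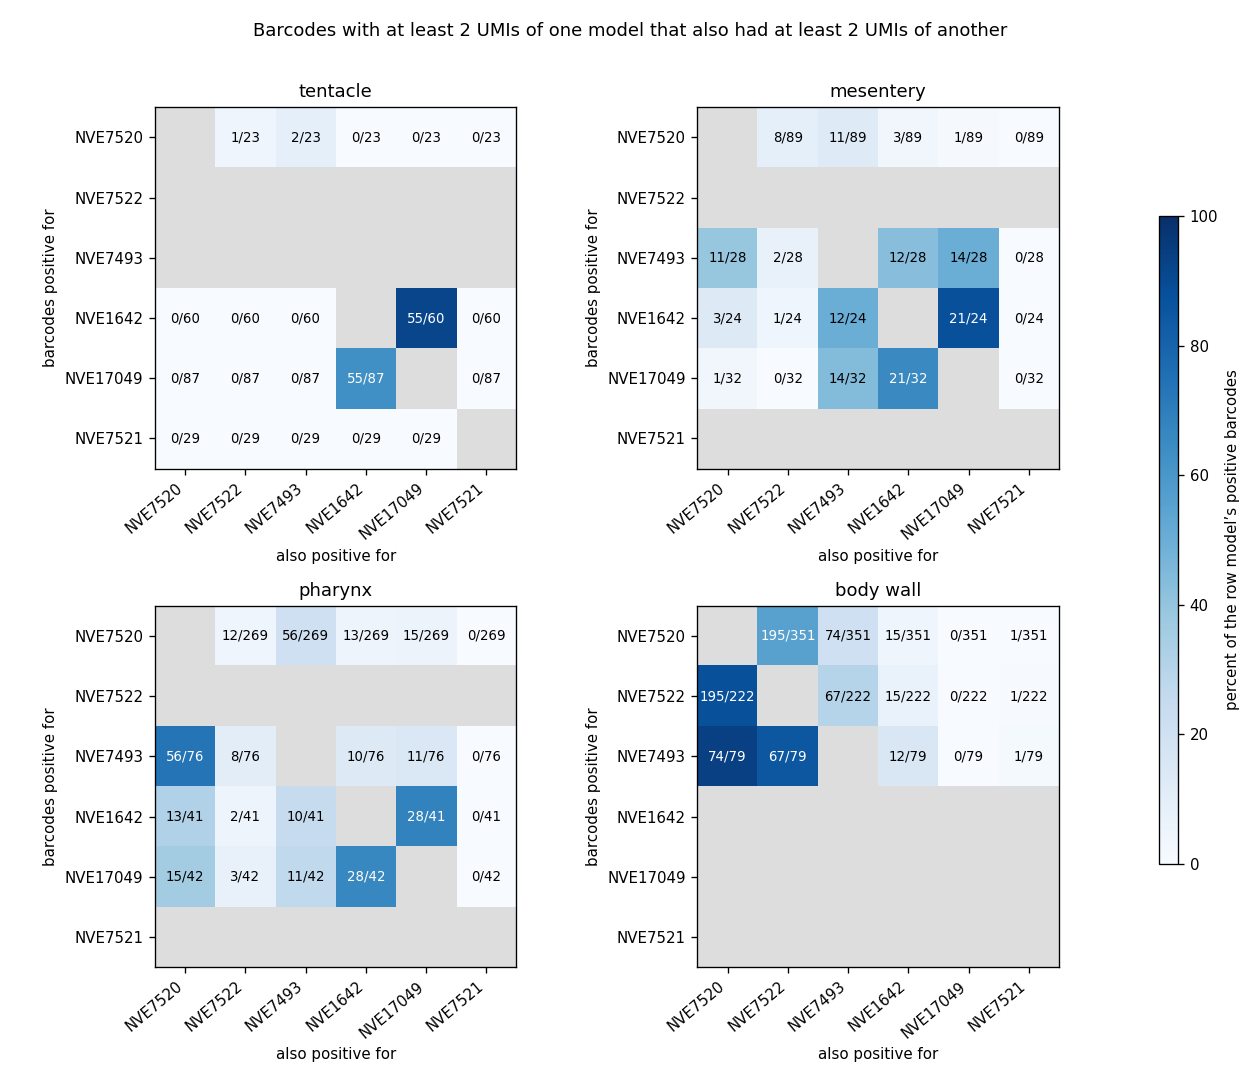
Each panel is a tissue, and each cell gives how many barcodes with at least 2 UMIs of the row model also had at least 2 UMIs of the column model, shaded by percent of the row model's positive barcodes. Grey cells are the diagonal and rows with under 20 positive barcodes. NVE1642 and NVE17049 share barcodes in tentacle, mesentery and pharynx, NVE7520 and NVE7522 in body wall, and NVE7493 changes its partners between tissues.

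MYL9_MOUSE separated the pairs in tentacle, mesentery and pharynx, each pair again counted by either of its models. At least 2 of its UMIs were present in 88 of 92 tentacle barcodes with only the NVE1642 and NVE17049 pair, in 30 of 32 of mesentery and in 31 of 34 of pharynx. Among barcodes with only the NVE7520 and NVE7522 pair it was present in 1 of 23, 0 of 86 (3 would make 3.49%) and 3 of 253 from tentacle to pharynx. Body wall cannot speak to this. MYL9_MOUSE had 0 UMIs in its kept barcodes, so the 0 of 363 there was fixed in advance. Of the barcodes with both pairs, 0 of 3 in mesentery and 7 of 21 in pharynx had MYL9_MOUSE. The 0 of 15 in body wall was likewise fixed in advance. Barcodes with both pairs were deep, with median UMIs of 4450 in mesentery, 2884 in pharynx and 4868 in body wall, against 1185, 1296 and 841 for the NVE7520 and NVE7522 pair alone. The part that doublets or depth play in these barcodes was not tested.

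NVE7493 had different partners in different tissues. In body wall 74 of its 79 positive barcodes had NVE7520 (93.7%, 85.8 to 97.9) and 67 had NVE7522 (84.8%, 75.0 to 91.9). In pharynx 56 of 76 had NVE7520 (73.7%, 62.3 to 83.1) and 11 had NVE17049 (14.5%, 7.45 to 24.4). In mesentery the largest overlap was with NVE17049, in 14 of 28 barcodes (50%, 30.7 to 69.4), followed by 12 with NVE1642 and 11 with NVE7520. By level, NVE17049 was 43.1 times higher (32.9 to 57.0) in NVE7493-positive mesentery barcodes and NVE7520 6.01 times (4.83 to 7.43), against 3.75% of all genes at 4-fold. In pharynx NVE17049 was 8.02 times higher (6.02 to 10.7) and NVE7520 6.16 times (5.53 to 6.87), against 4.72% of genes, and without the 2% deepest barcodes the NVE17049 ratio fell to 3.89. In body wall NVE7520 was 7.83 times higher (7.23 to 8.49), against 4.47% of genes. NVE7493-positive barcodes had a median of 3130, 2696 and 2472 UMIs in mesentery, pharynx and body wall, against 526, 543 and 708 in barcodes without it.

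NVE1642 was found with NVE7520 and NVE7522 in body wall, where NVE17049 was at 0. There 16 barcodes were NVE1642-positive, too few for a comparison of levels from the NVE1642 side. Of them 15 were NVE7520-positive and 15 NVE7522-positive. These shared barcodes were deep, with a median of 4868 UMIs against 766 for the tissue. Whether NVE1642 changes partners between tissues was not tested. Seen from the partner, NVE1642 was 16.1 times higher (8.53 to 33.4) in NVE7520-positive than in NVE7520-free barcodes of body wall, at 145 against 9.04 CPM. Its counts in body wall were low, with at most 5 UMIs in a barcode, against 18 in tentacle and 20 in mesentery.

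NVE7521 shared barcodes with none of the others in tentacle. Of its 29 positive barcodes there, 0 were positive for any of the other 5 models, and 3 would make 10.3%. NVE17049 had 0 UMIs in those 29 barcodes and 423 CPM in NVE7521-free ones. NVE1642 was at 49.1 against 216 CPM, a ratio of 0.227 (0.0467 to 0.670). The median ratio of all genes there was 1.27, and 5.06% reached 4-fold upward. The share that fell as far was not counted. NVE7520 was at 49.1 against 87.4 CPM, a ratio whose interval (0.115 to 1.68) includes 1. Muscle markers made up 0.647% of UMIs in NVE7521-positive and 0.986% in NVE7521-free tentacle barcodes.

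The same muscle list separated the 5 other models by tissue. In tentacle it made up 9.45% of UMIs in NVE17049-positive and 0.284% in NVE17049-free barcodes, and 9.26% against 0.345% for NVE1642. In mesentery the figure was 9.12% for NVE17049, 8.50% for NVE1642 and 6.02% for NVE7493, with 0.256% to 0.314% in barcodes without each. In body wall it was 1.18% with NVE7520 and 0.325% without, 1.29% against 0.349% for NVE7522 and 1.43% against 0.411% for NVE7493. In tentacle and mesentery NVE7520-positive barcodes held less of it than NVE7520-free ones, 0.512% against 0.973% and 0.529% against 0.758%. In pharynx they held more, 0.999% against 0.473%. MYL9_MOUSE alone gave 4393 of the list's 17558 UMIs in tentacle and 1974 of 10564 in mesentery. The NVE7520-free barcodes include those rich in it. These shares therefore cannot say whether NVE7520-positive cells are less muscle-like than other cells. The pharynx figure was 6.15% against 0.388% for NVE1642, 5.91% against 0.379% for NVE17049 and 1.93% against 0.414% for NVE7493. Of these 58 genes, 25 had a UMI in the 23 NVE7520-positive barcodes of tentacle.

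Clustering of all 7112 kept barcodes, with the 6 models held out, gave 29 clusters and placed the pairs in different ones. Cluster 6 (553 barcodes, 364 of them from body wall) and cluster 13 (195 barcodes, 99 from tentacle, 41 from mesentery, 55 from pharynx and 0 from body wall) were muscle-like by their markers. Cluster 13 was led by MYL9_MOUSE, which had 96.9% of its UMIs there, and by the tropomyosin TPM4_MOUSE (NVE1725). Cluster 6 was led by GELS1_LUMTE (NVE19183), named after an earthworm gelsolin, a protein that severs and caps actin filaments. Its leading genes included another MYL9-named model, MYL9_BOVIN (NVE14934), at 2607 CPM against 378 in all other cells. The myosin light chain MLC2_DROME (NVE12983) was at 904 against 118 CPM. Cluster 18 (154 barcodes, 153 from body wall) was matrix-like by its collagen genes, and clusters 8 (506, of which 342 from pharynx), 4 (496, of which 440 from tentacle) and 19 (87) were left unnamed. A cluster mostly from 1 library may reflect that library.

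NVE17049 had 92.6% of its UMIs in cluster 13, at 4001 CPM (3777 to 4234), and in no other cluster was it above 51.1 CPM. NVE1642 had 73.9% there, at 2227 CPM (2061 to 2403), followed by cluster 6 at 141 CPM (110 to 178). NVE7522 had 64.6% of its UMIs in cluster 6, at 2364 CPM (2233 to 2501), and 20.5% in cluster 18, at 1531 CPM. NVE7520 was spread more widely, with 42.1% in cluster 6 at 4750 CPM, 26.8% in cluster 8 at 2128 CPM and 15.03% in cluster 18 at 3461 CPM. NVE7493 was at 552 CPM in cluster 6, 480 in cluster 18, 431 in cluster 19, 386 in cluster 13 and 341 in cluster 8. NVE7521 had 75.7% of its UMIs in cluster 4, at 268 CPM (225 to 317). That cluster was led by the lectin-like CSL3_ONCKE (NVE7724) and by AVIL_HUMAN (NVE18027), and MYL9_MOUSE stood at 145 CPM in it against 28454 in cluster 13.

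**Figure D3:**
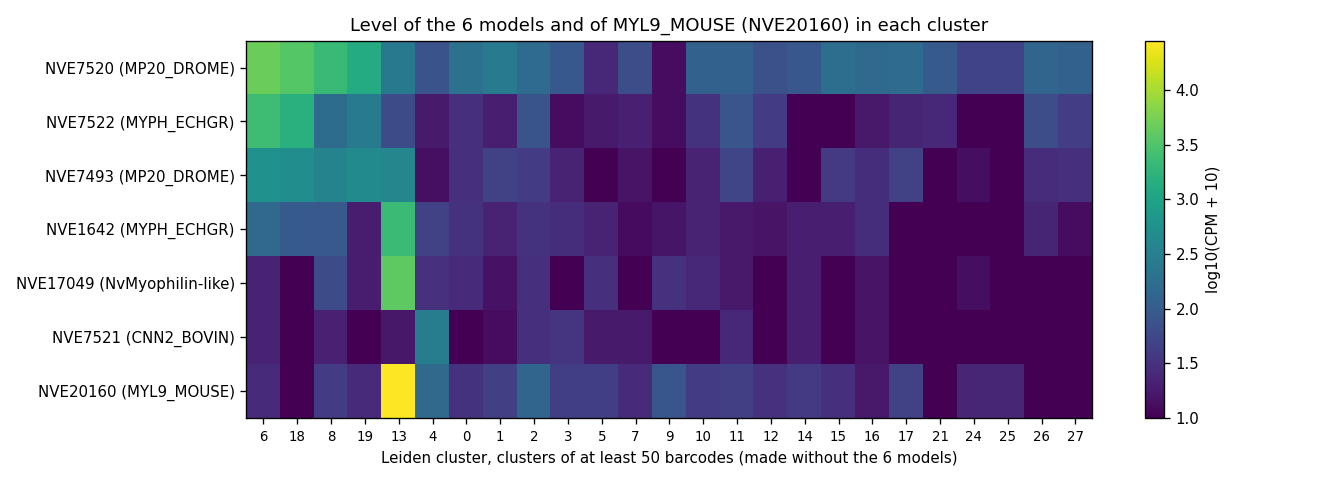
Rows are the 6 models and MYL9_MOUSE, columns are the 25 Leiden clusters of at least 50 barcodes, and the colour is log10(CPM + 10). NVE7520 and NVE7522 are brightest in clusters 6 and 18, NVE1642, NVE17049 and MYL9_MOUSE in cluster 13, and NVE7521 in cluster 4, while NVE7493 is at a similar level in clusters 6, 18, 8, 19 and 13.

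Within a cluster the tissues could be compared per cell group rather than per whole tissue. In cluster 13 NVE17049 was at 5145 CPM in tentacle (4764 to 5549), 4460 in mesentery (3961 to 5004) and 2232 in pharynx (1951 to 2542). The tentacle to mesentery ratio in that cluster was 1.154 (1.00 to 1.33), against 1.98 over the whole tissues, and cluster 13 held 7.62% of kept tentacle and 3.02% of kept mesentery barcodes. NVE1642 in cluster 13 was at 2596 CPM in tentacle, 1845 in mesentery and 1996 in pharynx, with tentacle at 1.41 times mesentery (1.14 to 1.75) and 1.30 times pharynx (1.09 to 1.56). For NVE17049 tentacle to pharynx was 2.31 (1.98 to 2.69) in the cluster against 3.76 over the whole tissues, while mesentery to pharynx was 2.00 (1.67 to 2.39) against 1.90.

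NVE7493 behaved differently in cluster 13. It had 2 UMIs in the 99 tentacle barcodes (15.3 CPM, 1.85 to 55.2), but 784 CPM in mesentery (584 to 1031) and 610 CPM in pharynx (467 to 782). Mesentery exceeded tentacle 51.4-fold (13.5 to 436), and mesentery and pharynx could not be told apart (1.29, 0.870 to 1.89). The MYL9_MOUSE level of the same barcodes was 32384 CPM in tentacle, 29156 in mesentery and 22942 in pharynx, so tentacle was the highest of the 3 for that gene. NVE7520 in cluster 13 was at 15.3 CPM in tentacle (2 UMIs), 123 in mesentery (8 UMIs, 53.1 to 242) and 600 in pharynx (459 to 771). The NVE7520 level in barcodes under 300 UMIs was 697, 622 and 805 CPM in these tissues. What part free RNA had in the pharynx value was not tested.

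**Figure D4:**
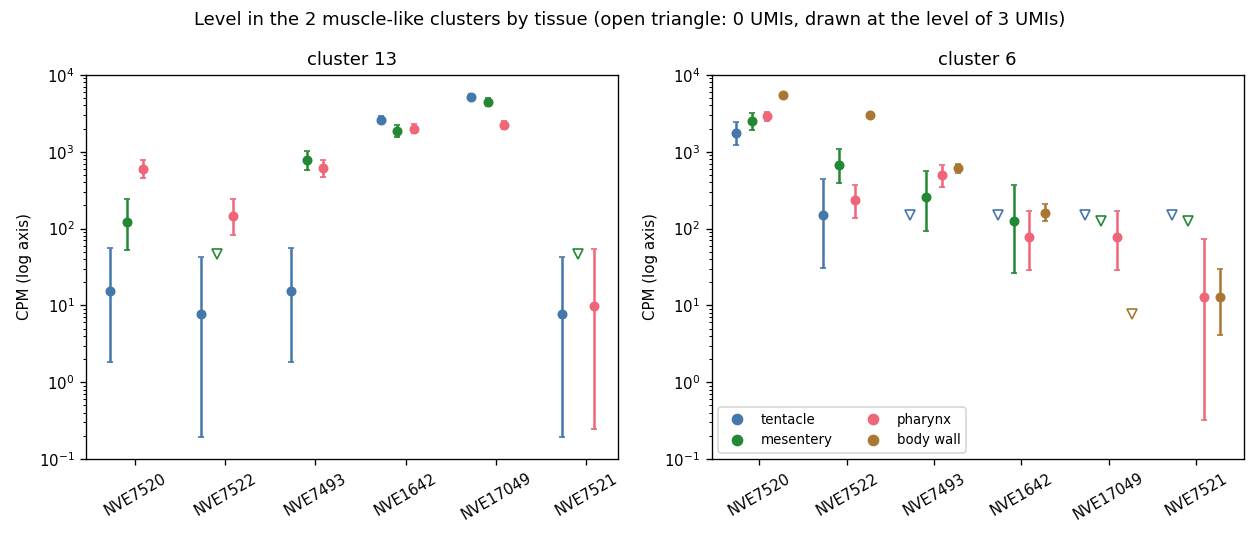
The 2 panels plot the level of each model in CPM (log axis) in muscle-like clusters 13 and 6, with points coloured by tissue and 95% Poisson intervals, and open triangles at the level of 3 UMIs where the count was 0. In cluster 13 NVE7493 lies at 784 CPM in mesentery and 610 in pharynx but 15.3 in tentacle, and in cluster 6 NVE7522 lies at 3003 CPM in body wall, above the other tissues.

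In cluster 6 the body wall preference of NVE7522 remained. Its level was 149 CPM in tentacle (3 UMIs, 30.8 to 436), 677 in mesentery (387 to 1100), 233 in pharynx (138 to 368) and 3003 in body wall (2833 to 3180). Body wall exceeded pharynx 12.9-fold (8.12 to 21.8) and mesentery 4.43-fold (2.72 to 7.78). NVE7520 varied less in the same cluster, at 1740, 2497, 2901 and 5408 CPM from tentacle to body wall, with body wall 1.86 times pharynx (1.62 to 2.15) and 3.11 times tentacle (2.23 to 4.48). NVE7493 in cluster 6 was at 254 CPM in mesentery, 492 in pharynx and 610 in body wall, and body wall and pharynx could not be told apart (1.24, 0.878 to 1.80). Its 0 UMIs among the 41 tentacle barcodes of cluster 6 leave body wall at least 4.09-fold higher. NVE1642 in cluster 6 was at 161.5 CPM in body wall, 127 in mesentery (3 UMIs), 77.7 in pharynx (6 UMIs) and 0 in tentacle. Body wall could not be told apart from mesentery (1.27, 0.416 to 6.33) or pharynx (2.08, 0.904 to 5.88). In cluster 8, mainly pharynx cells, NVE7520 reached 1688 CPM in tentacle, 1537 in mesentery and 2373 in pharynx, while NVE7522 stayed between 129 and 223 CPM in these tissues.

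Genes were next ranked by how like their pattern was to each model, as Pearson's r of log2(CPM + 10) over the 25 clusters of at least 50 barcodes. These values describe the clusters, which share libraries and differ in depth. NVE7520 was most like TPM_ECHMU (NVE26034), a tropomyosin, which lies along actin filaments (r = 0.94), followed by COA_ACRMI (NVE21289, r = 0.93) and another COA_ACRMI model (NVE19791, r = 0.92), both named after coadhesin of the coral skeleton. NVE7493 was most like MLP1_DROME (NVE7823), a muscle LIM domain protein in the fly (r = 0.96), then NVE15529 (r = 0.95) and COCA1_MOUSE (NVE18976), a collagen XII chain (r = 0.94). NVE7522 was most like GELS1_LUMTE (r = 0.96), then COCA1_MOUSE (r = 0.93) and CO5A1_HUMAN (NVE21105), a collagen V chain (r = 0.92). COCA1_MOUSE was thus among the top 3 of both NVE7493 and NVE7522.

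NVE1642 was most like KARG_ANTJA (NVE16356), an arginine kinase that buffers ATP (r = 0.91), MYS_ARGIR (NVE14552), a myosin heavy chain (r = 0.91), and MTPN_RAT (NVE19155, r = 0.89). NVE17049 was most like BAT47_CAEEL (NVE21834, r = 0.95), TPM4_MOUSE (r = 0.95) and MYL9_MOUSE (r = 0.92). NVE7521 was most like AVIL_HUMAN, named after advillin of the gelsolin family (r = 0.88), NVE647 (r = 0.85) and NVE3157 (r = 0.78). Among the members, r was 0.91 between NVE7520 and NVE7493, 0.86 between NVE7520 and NVE7522, and 0.84 between NVE1642 and NVE17049. It was 0.68 between NVE7493 and NVE1642, and 0.11 between NVE7520 and NVE17049.

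Genes were also ranked by level in the positive barcodes of each model against barcodes with 0 UMIs, over the 4 tissues together. Positive barcodes were uneven over tissues, with 222 of 248 for NVE7522 from body wall and 29 of 31 for NVE7521 from tentacle, so differences between tissues and use in the same cells cannot be told apart in these folds. For NVE17049 (161 positive barcodes, 3.02% of genes at 4-fold) the top named genes were CSRP1_COTJA (NVE7822), a LIM domain protein, at 937-fold, BAT47_CAEEL at 562-fold and TPM4_MOUSE at 544-fold. For NVE1642 (141 barcodes, 2.60%) they were CSRP1_COTJA at 217-fold, TPM4_MOUSE at 169-fold and MYL9_MOUSE at 161-fold. For NVE7522 (248 barcodes, 2.49%) they were WNT8B_DANRE (NVE12517), a secreted Wnt ligand, at 44.6-fold, TIMP3_CHICK (NVE11882), an inhibitor of matrix metalloproteinases, at 37.6-fold, and VAX/EMX-like (NVE4528), a homeobox gene, at 32.7-fold. The lists of NVE17049 and NVE1642 shared CSRP1_COTJA and TPM4_MOUSE, and neither gene was among the top 3 of NVE7522.

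For NVE7520 (732 positive barcodes, 4.34% of genes at 4-fold) the ranking gave EXSA_BACCE (NVE22506) at 50.4-fold, VAX/EMX-like at 48.3-fold and GELS1_LUMTE at 32.3-fold. For NVE7493 (185 barcodes, 3.44%) it gave EXSA_BACCE at 142-fold, VAX/EMX-like at 18.3-fold and WNT8B_DANRE at 15.7-fold. The EXSA_BACCE value rested on 1 barcode, positive for both models, that held all 220 of its UMIs in positive barcodes, whereas VAX/EMX-like was found in 54 NVE7520-positive barcodes. For NVE7521 (31 barcodes) the top 3 were MYPH_ECHGR (NVE18850), a further myophilin-named model, at 41.1-fold with 17 UMIs, CSL3_ONCKE at 23.2-fold and TBA1_DROME (NVE14885), an alpha-tubulin, at 20.2-fold with 14 UMIs. In the NVE7521-positive barcodes 30.7% of genes were at 4-fold, and the median fold of all genes was 2.68. Counts under 3 UMIs were set to 3 for these folds. In so few barcodes that floor alone can give 4-fold, so the share is no guide to the top ratios.

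The 8 other rows with a calponin, MP20 or myophilin name included models of both patterns. NVE7494 (MYPH_ECHGR) followed the body wall gradient, at 36.9, 79.3, 134 and 303 CPM from tentacle to body wall, with 35.2% of its UMIs in cluster 6 and 0.771% in cluster 13. NVE17048 (MYPH_ECHGR) did likewise, at 2.71, 15.3, 38.5 and 82.3 CPM, with 46.3% in cluster 6. NVE7496 (MYPH_ECHGR) was the 1 of these rows called tissue-low in tentacle, at 24.4 CPM against 462 in mesentery, 366 in pharynx and 841 in body wall. It differed from the members in being highest in body wall clusters 27 and 26, at 1568 and 1335 CPM. NVE18850 (MYPH_ECHGR) resembled NVE7521, at 28.8 CPM in tentacle, 0 in mesentery, 4.36 in pharynx and 4.49 in body wall, with 68.9% of its UMIs in cluster 4, and was the 1 of these rows called tissue-high, in tentacle. NVE1656 (CNN1_CHICK) was at 72.2, 28.8, 43.2 and 129 CPM and was spread over many clusters. The last 3 rows, NVE18848, NVE18849 and NVE17200, had 2, 1 and 7 UMIs in all.

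Calls in the wider families were counted in the same way, and their difference from the members was not tested. Of 70 other calponin homology genes, 15 could have been called high in tentacle and 1 was, 9 could have been called low there and 1 was, and no call was made in mesentery, pharynx or body wall. The high call was NVE18850 and the low call NVE7496, both already given above, since this list includes the other rows with myophilin names. The median log2 ratio of tentacle to the mean of the other tissues was -0.08 for this list and -0.06 for all 8222 genes. Those with the most UMIs, besides NVE7496 and NVE7494, were the actin cross-linker FLNA_HUMAN (NVE6160), at 157 to 181 CPM, and the actin bundler PLSI_BOVIN (NVE24821), at 53.4 CPM in body wall and 105 to 139 CPM elsewhere. Of 77 contractile genes, 2 of 31 that could be were high in tentacle and 1 of 25 in body wall, while 5 of 21 were low in tentacle and 6 of 23 low in body wall. The shares of all genes for these 4 calls were 12.1%, 8.41%, 3.68% and 2.00%.

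Among the contractile genes the actins also split by tissue. ACTC_BIOAL (NVE1939) was at 1684 CPM in tentacle, 15035 in mesentery, 14421 in pharynx and 13117 in body wall. ACTB_XENBO (NVE2870) was at 199 CPM in tentacle and 2032 to 3327 elsewhere. ACTB_XENLA (NVE2876) went the other way, at 10260 CPM in tentacle, 8507 in mesentery, 4053 in pharynx and 512 in body wall. Reads can be shared between such near-identical actin copies, so these levels are uncertain.

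Barcodes below 300 UMIs, which were not used for the values above, carried the models in other proportions. In tentacle NVE7520 was at 697 CPM in them (553 UMIs) against 93.3 in kept barcodes, a ratio of 7.47 (6.28 to 8.91). NVE7493 stood at 6.97 times (3.54 to 14.7) and NVE7522 at 6.13 times (3.69 to 10.51) their kept levels there, while NVE1642 was at 0.440 times and NVE17049 at 0.525 times. In body wall NVE7520 differed little, at 1578 against 1608 CPM. With all 7000 barcodes of each library counted, the body wall to tentacle ratio became 5.82 for NVE7520, 10.8 for NVE7493 and 25.3 for NVE7522, from 17.2, 30.7 and 69.2 in kept barcodes. Tentacle remained the lowest tissue for all 3 in that count. As a mean over kept barcodes the same ratios were 8.69, 20.8 and 32.2. Within the small barcodes alone, NVE7493 was still lowest in tentacle, at 45.4 CPM against 71.3 to 187 elsewhere. NVE7520 was not, at 697 CPM in tentacle against 622 in mesentery, and NVE7522 was not, at 73.1 CPM against 33.5 in mesentery and 34.9 in pharynx.

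**Figure D5:**
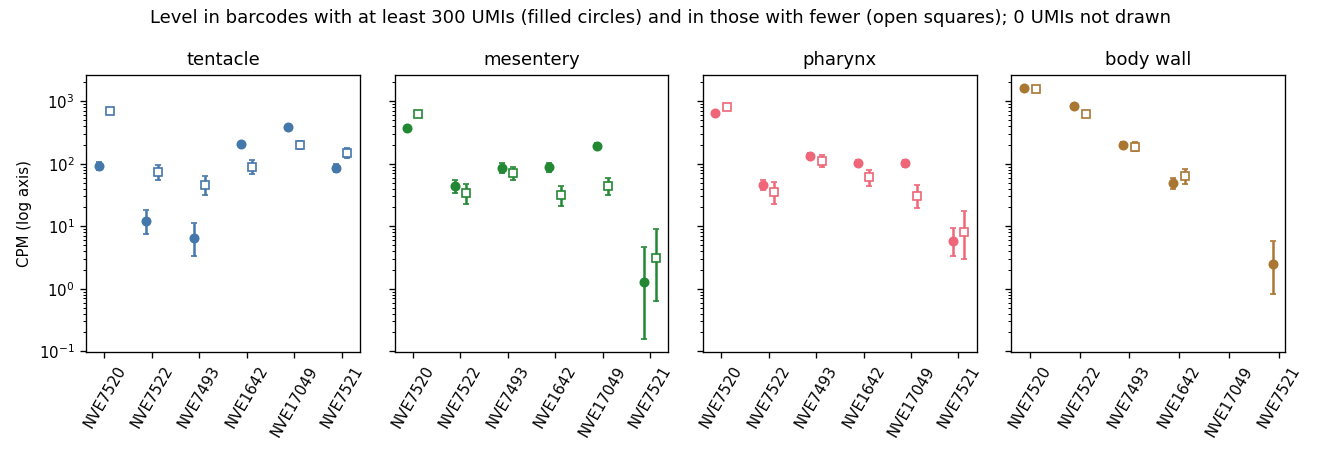
Each panel is a tissue and plots the level of each model in CPM (log axis) in kept barcodes (filled circles) and in barcodes with fewer than 300 UMIs (open squares), with 95% Poisson intervals. In tentacle NVE7520, NVE7522 and NVE7493 lie higher in the small barcodes and NVE1642 and NVE17049 lower, while in body wall the values for NVE7520, NVE7493 and NVE1642 lie close together.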

How the data were processed

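Droplet libraries from 4 tissues were analysed, 1 for each. The deposited values are raw counts: UMIs per gene and barcode, which the authors deposited; the submitters' processing notes name Cell Ranger 2.1.0. Build and handling of reads that fit several genes were not given in the sources used here. Members and lists were chosen with earlier results of these data known.

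Counts were summed over barcodes with at least 300 UMIs and divided by the tissue total (CPM). No doublet caller was run; removal of the 2% deepest barcodes was an alternative. With 1 library a tissue no test was made. A barcode was positive at 2 UMIs, comparisons needed 20 positive barcodes, and a count of 0 was set against a floor of 3 UMIs. Clusters came from scanpy 1.11.5 (Python 3.11.15) without the 6 models: counts scaled to 10000 per barcode, 2000 variable genes, 30 principal components, 15 neighbours, Leiden resolution 1. A cluster was named from name-based markers, after 19 names of other proteins had been removed once seen. Named genes are the members, the 3 most alike by r (at least 200 UMIs), the 3 highest in positive barcodes (at least 50 UMIs), and the 4 of each list with most UMIs; other myophilin rows, cluster-leading genes and genes at a size limit were added after their values were seen. The calls and ratios were also run on simulated Poisson counts, with changes placed only in well-counted genes. That simulation held no doublets or free RNA, so it cannot speak to either. None of the identifiers matched the RefSeq gene table provided, so positions and sequences were not used here.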

Additional observations from a re-analysis of the deposited data

Results flagged for a closer look

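Barcodes with fewer than 300 UMIs were not among the kept barcodes that give the reported levels, and the 6 models were counted in them, above the level of 3 UMIs that a count of 0 allows. NVE7520 was at 697 CPM in the small barcodes of tentacle, 622 in mesentery, 805 in pharynx and 1578 in body wall. NVE7493 was at 45.4, 71.3, 112 and 187 CPM in the same order. NVE7522 was at 73.1 CPM in tentacle, 33.5 in mesentery, 34.9 in pharynx and 624 in body wall. NVE1642 was at 89.5, 31.4, 60.5 and 64.0 CPM. NVE7521 was at 151 CPM in tentacle and 8.06 in pharynx. NVE17049 was at 200.3 CPM in tentacle, 44.0 in mesentery and 30.9 in pharynx. What these barcodes hold, free RNA, broken cells or small cells, was not tested.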

How the results depend on the processing

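No paired analysis was possible because each tissue has 1 library and the shared run number of the labels pairs no samples. No ratio between the highest and second tissue and no sharing ratio changed direction. Of 144 levels, 86 stayed within the counting interval of the reported value. So did 27 of 36 ratios between the highest and second tissue and 27 of 49 sharing ratios. The order of tissues changed only between neighbours whose intervals overlapped: pharynx and mesentery for NVE7522 without the deepest barcodes and for NVE1642 as a mean over barcodes, and body wall and mesentery for NVE7521 with all barcodes or without the deepest. Without the 2% deepest barcodes, body wall to pharynx became 1.89 for NVE7520, 1.21 for NVE7493 and 15 for NVE7522, NVE7520 in NVE7493-positive mesentery 4.52, NVE17049 in NVE7493-positive pharynx 3.89, and the share with both pairs in body wall 1.98%. As a mean over barcodes, the highest to second tissue became 2.77 (NVE7520), 1.76 (NVE7493), 2.88 (NVE1642), 28.5 (NVE7521) and 3.51 (NVE17049), and 2.40 for NVE17049 with all barcodes. The cause was not tested.

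With 1 UMI making a barcode positive, NVE7522 in NVE7520-positive body wall became 25.8, NVE7520 in NVE7493-positive body wall 6.52 and pharynx 5.17, NVE17049 in NVE7493-positive mesentery 23.6, NVE17049 in NVE1642-positive tentacle 60.01 and pharynx 38.4, NVE7520 in NVE17049-positive mesentery 0.805 and pharynx 2.37, and both pairs in body wall 9.67%. With 3 UMIs, NVE7520 and NVE17049 in NVE7493-positive pharynx became 5.30 and 14.9, NVE7520 in NVE17049-positive pharynx 1.51, and both pairs in body wall 2.13%. With at least 500 UMIs a barcode, NVE7522 in NVE7520-positive body wall became 61.5, NVE7520 in NVE7493-positive body wall 9.33 and NVE17049 in NVE1642-positive tentacle 107. With at least 1000 UMIs, chosen after seeing the data, the first was 86.9, then 11.3 and 345, NVE7520 in NVE7493-positive mesentery 9.14, NVE17049 in NVE7493-positive pharynx 5.56, NVE7520 in NVE17049-positive pharynx 1.49, and both pairs in body wall 8.43%. In mesentery fewer than 20 barcodes stayed positive for 3 ratios at 3 UMIs and 2 at 1000 UMIs, and the 20 left with NVE17049 at 3 UMIs held no NVE7520 UMI, so these gave no value. The settings for both pairs were also chosen after seeing the data.

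At Leiden resolution 0.5 the cluster with most UMIs held 57.3% of NVE7520, 44.4% of NVE7493 and 86.3% of NVE7522. At resolution 2 it held 28.1%, 24.5% and 49.3% of these, 45.0% of NVE1642, 54.1% of NVE7521 and 57.3% of NVE17049; finer clusters hold fewer barcodes. Members called tissue-low numbered 4 in place of 2 at a fold of 2 and at 500 UMIs a barcode, with NVE7520 and NVE7522 added in tentacle. Depth limits NVE7521 outside tentacle and NVE7522 and NVE7493 in tentacle, where counts were 2 to 22 UMIs.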
